A study of Mus musculus with 12 samples.

Results

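The genes described are 8 enzymes of fatty acid and triglyceride synthesis: Acly, Acaca, Acacb, Fasn, Scd1, Scd2, Dgat1 and Dgat2. They were chosen by gene name from a table of 43686 rows. A row was found for all 8, of which 7 carry the name itself, while the row of Acaca has an empty name field and was recognised through the KEGG annotation in the same table. None of the 8 makes sterols, so the enzymes of cholesterol synthesis were read from a separate list. RNA was sequenced from the ventricular wall of mice, 6 WT and 6 KO, whose strain is C57BL/6 in the sample labels and C57BL/6J in the study's methods. The labels give their age as 2 months, and the study's main text gives a younger age. Both groups carry the floxed Sdhaf4 alleles (Sdhaf4fl/fl). The WT mice are littermates without Cre, and the KO mice, which the labels call Sdhaf4-/-, carry Cre under the muscle creatine kinase promoter (Ckmm-Cre). That promoter acts in heart and skeletal muscle, so the other cells of the ventricle are not targeted. Sdhaf4 encodes an assembly factor of succinate dehydrogenase, complex II of the respiratory chain.

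Fatty acid synthesis starts from citrate that has left the mitochondria. Acly splits it into acetyl-CoA, acetyl-CoA carboxylase (Acaca or Acacb) turns acetyl-CoA into malonyl-CoA, and Fasn builds malonyl-CoA into saturated fatty acids. Scd1 and Scd2 introduce a double bond, and Dgat1 and Dgat2 attach the last acyl chain of a triglyceride. The heart mainly burns fatty acids rather than making them. There the carboxylase of the mitochondrial surface, Acacb, is best known for the malonyl-CoA that restrains the entry of fatty acids into mitochondria, while Acaca is the cytosolic form that feeds Fasn.

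The 8 genes did not move as 1 block. Dgat2, Acacb and Fasn were lower in KO hearts, Acaca, Dgat1 and Scd1 were higher, and Acly and Scd2 did not pass the test. Between the genes of the same step, Acaca and Acacb changed in opposite directions, and so did Dgat1 and Dgat2. The genes with the highest levels in WT, Dgat2 and Acacb, fell, and the gene with the largest rise, Acaca, belonged to the low ones. Calls are at an adjusted p of 0.05 in edgeR's quasi-likelihood test (Benjamini-Hochberg adjustment over 17155 rows), a threshold that 51.1% of all rows passed, 25.6% being higher and 25.5% lower in KO. The 6 called among 8, or 75.0%, are to be read against that background. The median log2 fold change was 0.16 over the 8 genes and 0.00 over all rows.

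Promoter sequences are shown for Fasn and Acacb, the genes that fell for which RefSeq (GRCm38.p6) gives a window. They are the 250 bases before the annotated start, 5′ to 3′ on the gene's strand, with every CCAAT box (CCAAT on either strand) in capitals. The Fasn window is chr11:120824548-120824797 on the minus strand and the Acacb window chr5:114165268-114165517 on the plus strand.
Fasn: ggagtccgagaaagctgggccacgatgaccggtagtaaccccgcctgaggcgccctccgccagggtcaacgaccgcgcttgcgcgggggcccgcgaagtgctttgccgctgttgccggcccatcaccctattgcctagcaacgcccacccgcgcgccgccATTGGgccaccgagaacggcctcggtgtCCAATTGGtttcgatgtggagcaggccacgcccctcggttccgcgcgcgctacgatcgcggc
Acacb: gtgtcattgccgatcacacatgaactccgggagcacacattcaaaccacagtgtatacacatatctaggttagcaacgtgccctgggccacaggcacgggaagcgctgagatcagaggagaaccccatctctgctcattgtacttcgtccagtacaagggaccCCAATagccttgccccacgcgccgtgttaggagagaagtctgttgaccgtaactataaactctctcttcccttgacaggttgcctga
The Fasn window holds 3 CCAAT matches, starting 90, 62 and 59 bases before the start, of which the last 2 are on opposite strands and overlap in part. The Acacb window holds 1 match, starting 87 bases before the start. CCAAT occurs in 33.8% of all 32851 RefSeq windows of this length. Of the 8 genes 4 have a window, the other 2 being Acaca and Acly. The Acly window (chr11:100528001-100528250, minus strand) has no CCAAT and holds 4 GC boxes (GGGCGG on either strand), a motif found in 32.7% of all windows. The Acaca window (chr11:84195188-84195437, plus strand) holds neither. The sterol regulatory element TCACNCCAC, present in 1.05% of all windows, and the E-box CACGTG, present in 6.02%, were searched on both strands and are in none of the 4. The windows also differ in base composition, with a GC content of 69.2% in Fasn, 68.8% in Acly, 52.4% in Acacb and 39.2% in Acaca against a median of 52.4%. The window of Acaca lies inside 6 of its 9 GENCODE transcripts and that of Acacb inside 1 of 5, so these windows represent 1 of several starts. For those transcripts the bases searched lie within the gene and not before a start. A motif missing there says nothing about the promoters of those transcripts. The windows of Fasn and Acly lie inside none of the transcripts of their gene.

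The libraries held 23747014 to 27159228 counts in WT and 26542930 to 31393393 in KO, and the lowest count of any of the 8 genes in any library was 341, for Scd1. Levels below are in CPM, the counts of a gene scaled to its library's total with edgeR's TMM factors. Sdhaf4 itself was at 14.3 to 30.3 CPM in WT and at 2.25 to 2.73 CPM in KO. The log2 fold change of Sdhaf4 was -3.39 ± 0.16 (SE, n = 6 per group) with an adjusted p of 1.95e-10 in edgeR. In every library the level of Sdhaf4 matched its genotype label.

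The last step of triglyceride synthesis held the largest fall among the 8 genes. Dgat2 (chromosome 7, 105847849 to 105876501, minus strand, as all gene positions here in the coordinates of the deposited table, whose identifiers are those of the C57BL/6NJ assembly) was at 365.9 CPM in the lowest WT library, 403.1 CPM at the median and 441.2 CPM in the highest. In KO hearts Dgat2 was at 145.0, 184.1 and 259.0 CPM. The groups did not overlap, and the KO library nearest to WT was replicate 3. The log2 fold change of Dgat2 was -1.08 ± 0.11 (SE, n = 6 per group; 95% interval -1.3 to -0.86), a fall of 52.6%, with an adjusted p of 2.04e-06 in edgeR. Dgat1 encodes the other, structurally unrelated acyltransferase of this step (chromosome 15, 79444169 to 79454032, minus strand). Dgat1 ranged from 18.95 to 23.14 CPM in WT with a median of 20.4 and from 23.3 to 31.06 CPM in KO with a median of 24.97. The groups were adjacent without overlapping, and KO replicate 5 stood above the other KO libraries. In the deposited FPKM, to which no TMM factors were applied, Dgat1 overlapped, at up to 26.3 in WT and from 25.9 in KO. Dgat1 rose by 0.29 ± 0.08 on the log2 scale (SE, n = 6 per group), 1.23-fold, with an adjusted p of 0.0052 in edgeR.

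**Figure D1:**
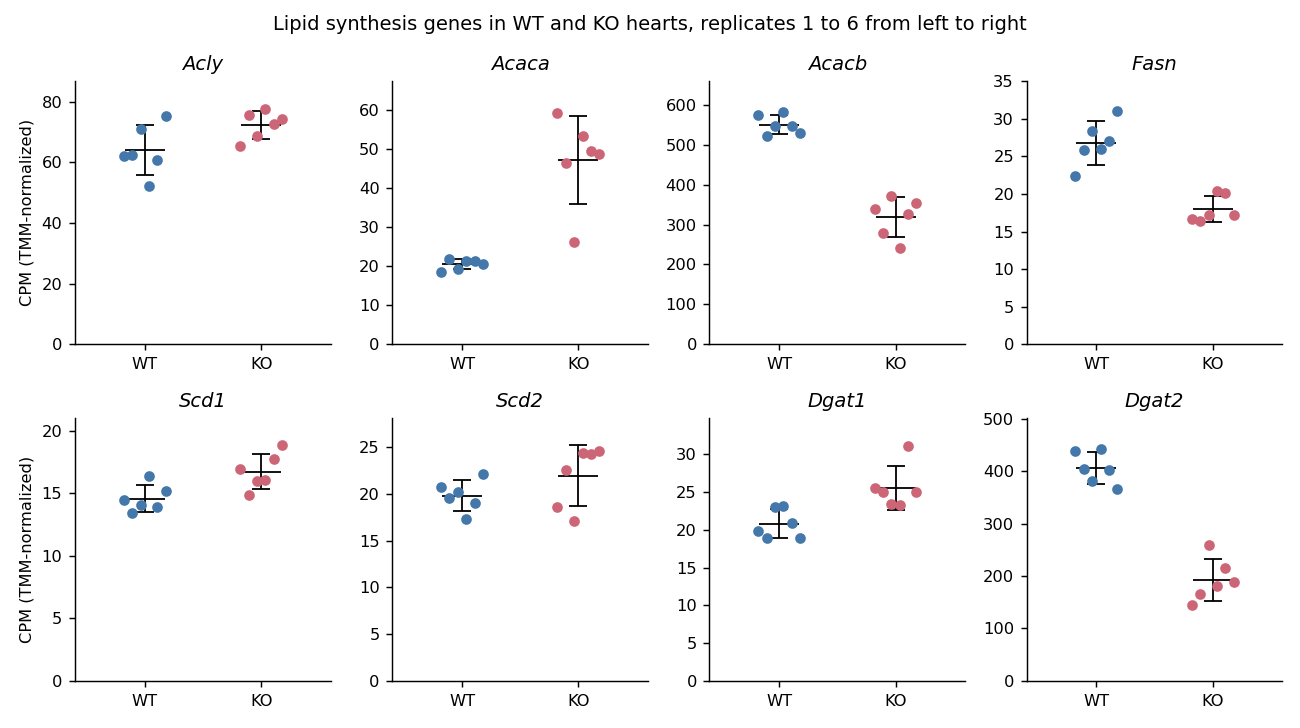
TMM-normalized CPM of the 8 genes in each library, replicates 1 to 6 from left to right within WT and KO; the lines are the mean and the SD of 6 libraries. Dgat2, Acacb and Fasn lie lower and Acaca and Dgat1 higher in all KO libraries than in any WT library, with KO replicate 3 nearest to WT for Dgat2, Acacb and Acaca.

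The carboxylase step moved in both directions. Acacb (chromosome 5, 121379446 to 121500298, plus strand) was at 521.8, 547.3 and 582.9 CPM in the lowest, the median and the highest WT library. The KO values were 241.2, 332.6 and 372.8 CPM, all below WT. The log2 fold change of Acacb was -0.79 ± 0.087 (SE, n = 6 per group; 95% interval -0.96 to -0.62), a fall of 42.1%, with an adjusted p of 1.21e-06 in edgeR.

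Acaca (chromosome 11, 88120419 to 88425793, plus strand) ranged from 18.44 to 21.75 CPM in WT with a median of 20.89. In KO it ranged from 26.16 to 59.14 CPM with a median of 48.98. All KO libraries lay above WT, and replicate 3, the lowest, was separated from the other 5, which held 46.4 to 59.1 CPM. The rise was 1.21 ± 0.15 on the log2 scale (SE, n = 6 per group; 95% interval 0.91 to 1.5), 2.31-fold, with an adjusted p of 1.63e-05 in edgeR. Without KO replicate 3 the log2 fold change of Acaca was 1.32, that of Acacb -0.84 and that of Dgat2 -1.19. The rows of Acaca and Acacb each overlap another row on the opposite strand, the row of Acaca also 1 on its own strand (the rows of Acly and Scd2 overlap 1 on their own strand). Whether reads were counted by strand is not given in the sources used here, so these values are uncertain to that extent.

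Fasn, the synthase itself (chromosome 11, 129112906 to 129131607, minus strand), fell. It was at 22.41, 26.49 and 31.11 CPM in the lowest, the median and the highest WT library and at 16.42, 17.21 and 20.38 CPM in KO. The highest KO library remained below the lowest WT library. The log2 fold change of Fasn was -0.57 ± 0.082 (SE, n = 6 per group; 95% interval -0.73 to -0.41), a fall of 32.8%, with an adjusted p of 1.89e-05 in edgeR.

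Acly, which supplies the acetyl-CoA (chromosome 11, 106448583 to 106501656, minus strand), spanned 52.15 to 75.4 CPM in WT and 65.37 to 77.63 CPM in KO. The groups overlapped, and the log2 fold change of 0.18 ± 0.075 (SE, n = 6 per group; 95% interval 0.03 to 0.32) had an adjusted p of 0.0571 in edgeR. It passed the threshold in 3 of the 12 fits that left out 1 library, without WT replicate 3, WT replicate 6 or KO replicate 1 (lowest adjusted p 0.012 in edgeR).

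The desaturases differed little between the groups. Scd1 (chromosome 19, 44956723 to 44969981, minus strand) was at 13.41 to 16.38 CPM in WT and at 14.84 to 18.85 CPM in KO, with overlapping groups. Scd1 passed the test at an adjusted p of 0.0334 in edgeR, with a rise of 0.20 ± 0.075 on the log2 scale (SE, n = 6 per group). It no longer passed in 7 of the 12 fits with 1 library omitted, those without WT replicate 1, 2, 3 or 5 or KO replicate 1, 5 or 6, with adjusted p from 0.0187 to 0.0872 over the 12 fits in edgeR. Scd2 (chromosome 19, 44834733 to 44849270, plus strand) was at 17.29 to 22.13 CPM in WT and at 17.08 to 24.55 CPM in KO. Its log2 fold change of 0.15 ± 0.094 (SE, n = 6 per group; 95% interval -0.04 to 0.33) had an adjusted p of 0.21 in edgeR. Without KO replicate 3 Scd2 passed at an adjusted p of 0.0478 in edgeR, its difference being 0.20.

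With the stricter thresholds of the study's methods, an adjusted p of 0.005 and an absolute log2 fold change of 1, Acaca remained among the higher rows and Dgat2 among the lower ones. Of all rows 10.2% passed both thresholds, 5.36% being higher and 4.87% lower. In CPM with TMM factors, WT and KO libraries did not overlap for 5 of the 8 genes and for 30.1% of all rows. The 5 were Dgat2, Acacb, Fasn, Acaca and Dgat1, and for Dgat1 this depended on the scaling.

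The spread between KO hearts was wider than between WT hearts for the 3 genes with the largest changes. The coefficient of variation over 6 libraries was 6.39% in WT and 23.8% in KO for Acaca, 7.44% and 20.9% for Dgat2, and 4.36% and 15.6% for Acacb. Without KO replicate 3 the KO values were 9.75% for Acaca, 14.5% for Dgat2 and 15.2% for Acacb. The spread was also wider in KO for 3 genes with small changes. It was 8.24% in WT and 14.9% in KO for Scd2, 9.16% and 11.2% for Dgat1, and 7.4% and 8.49% for Scd1. Fasn had 10.8% and 9.94%, and for Acly the order was the other way round, 12.8% in WT and 6.3% in KO. These spreads are given without a test.

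To compare levels between genes, counts have to be divided by length. The deposited FPKM (fragments per unit of gene length and sequencing depth) do this, but for 5 of the 8 genes the length they imply is shorter than the length listed in the table. For Fasn the implied length is 3578 bases and the listed length 10050, and for Acaca 3957 and 9509, while both lengths are the same for Dgat2, Scd1 and Scd2. Levels were therefore read with both lengths. With either length Dgat2 was the highest in WT, followed by Acacb and then by Acly and Dgat1, whose libraries overlapped. The median FPKM in WT was 179 for Dgat2, 108 for Acacb, 26.3 for Acly and 23.2 for Dgat1. The other 4 genes were at medians of 7.38 FPKM for Fasn, 5.29 for Acaca, 3.65 for Scd2 and 2.92 for Scd1. Their order depended on the length used, and with the listed lengths neighbours among these 4 overlapped. In KO the median FPKM was 82.0 for Dgat2 and 67.1 for Acacb, which overlapped in FPKM but not with the listed lengths. Acaca was above Fasn in KO with either length, at a median of 12.3 against 4.7 FPKM.

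**Figure D2:**
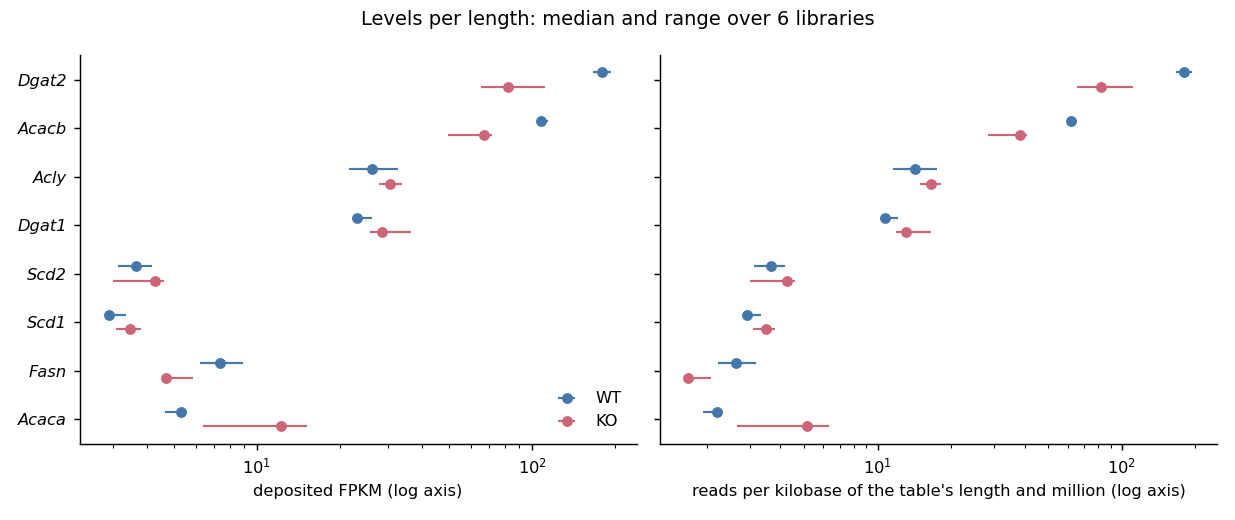
Levels per length of the 8 genes, in deposited FPKM on the left and in reads scaled by the listed length and the library size on the right, both on a log axis; points are medians and lines the range over 6 WT or 6 KO libraries. Dgat2 and Acacb are the highest in both panels and both groups. The place of Fasn among the low genes changes with the length used in both groups, and that of Acaca in WT only.

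The balance between the genes of a step was compared within each library, where library size cancels. The FPKM of Acacb were 18.9 to 24.5 times those of Acaca in WT, with a median of 20.9, and 3.57 to 11.2 times in KO, with a median of 4.97. The highest KO ratio was that of replicate 3 and lay below every WT library. The log2 ratio fell by 1.97 ± 0.24 (SE, n = 6 per group), 3.91-fold, and the 2-sided exact permutation test gave p = 0.00216, the smallest it can give with 6 against 6, or 0.00325 after adjustment over 3 ratios. In every KO library Acacb lay below and Acaca above all WT libraries. The p was thereby fixed at this smallest value and adds nothing to the calls of the 2 genes. Expressed as a share, Acaca made up a median of 4.56% of the carboxylase FPKM in WT and 16.8% in KO. With the listed lengths the medians were 3.36% and 12.8%.

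The FPKM of Dgat2 were 6.37 to 8.51 times those of Dgat1 in WT, with a median of 7.44, and 2.2 to 4.27 times in KO, with a median of 2.78. The log2 ratio fell by 1.39 ± 0.14 (SE, n = 6 per group), 2.63-fold, with p = 0.00216 in the exact permutation test and 0.00325 after adjustment. This p too was fixed in advance, as in CPM Dgat2 lay below and Dgat1 above all WT libraries in every KO library. With the listed lengths the median ratio was 16.2 in WT and 6.05 in KO, so the size of the ratio depends on the length while its change does not. Acacb and Dgat2 were still the more abundant of their pair in every KO library. The ratio of Scd1 to Scd2 was 0.772 to 1.07 in WT and 0.742 to 1.06 in KO, and its log2 difference of 0.06 ± 0.12 (SE, n = 6 per group) had p = 0.617 in the exact permutation test.

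**Figure D3:**
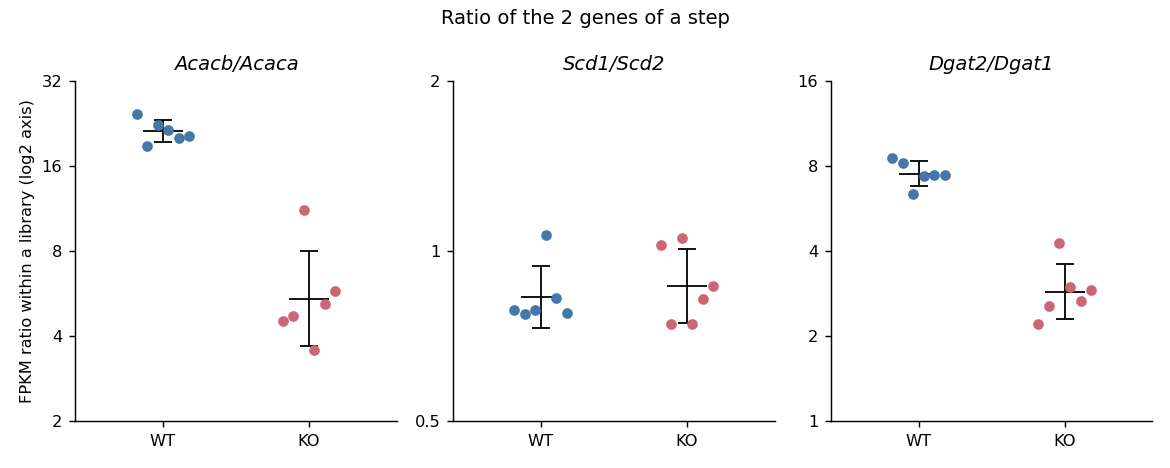
Ratio of the FPKM of the 2 genes of a step within each library, on a log2 axis with a separate range for each pair; points are replicates 1 to 6 from left to right and lines the mean and SD of the log2 ratios. The ratios of Acacb to Acaca and of Dgat2 to Dgat1 are lower in all 6 KO libraries than in any WT library, and those of Scd1 to Scd2 overlap.

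Other genes of the pathway were taken as whole lists, described by counts and medians without a test of the list. Among 13 regulators of lipid synthesis 3 were higher, 6 lower and 4 did not pass, with a median log2 fold change of -0.14. The called share was 69.2%, against 51.1% of all rows. Mlxipl, which encodes the carbohydrate-responsive factor ChREBP, had a mean of 24.4 CPM in WT and 5.08 CPM in KO. Its log2 fold change of -2.26 ± 0.19 (SE, n = 6 per group; adjusted p 3.82e-07 in edgeR) was the largest in the list. Nr1h3, which encodes the sterol-sensing nuclear receptor LXR alpha, had means of 21.6 CPM in WT and 8.89 CPM in KO, or -1.28 on the log2 scale. Insig1, whose product holds the precursors of the SREBP factors in the endoplasmic reticulum, changed by -0.86, while Insig2 rose by 0.37. Srebf1, which encodes the SREBP-1 factors, had a smaller fall of 0.26 ± 0.078 on the log2 scale (SE, n = 6 per group; adjusted p 0.0104 in edgeR), from 29.5 to 24.7 CPM. Srebf2 was at 29.9 and 32.6 CPM and did not pass (0.12 ± 0.082, SE, n = 6 per group; adjusted p 0.228 in edgeR). Thrsp, known as Spot 14 and a thyroid hormone-responsive gene of fat-making tissues, rose from 32.8 to 59.2 CPM, by 0.85 on the log2 scale.

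All 7 genes of precursor supply were measured, of which 3 were higher and 3 lower, with a median of -0.24. Called genes made up 85.7% of this list and 51.1% of all rows. Mlycd, whose product breaks malonyl-CoA down again and so acts against the carboxylases, fell with Acacb from a mean of 256 to 145 CPM (log2 fold change -0.82, adjusted p 2.5e-07 in edgeR). Idh1, a cytosolic source of NADPH, changed by -0.64, and Acss2, which makes acetyl-CoA from acetate, by -0.43. The enzymes of the pentose phosphate pathway that make NADPH rose, G6pdx by 0.55 and Pgd by 0.43, and so did malic enzyme, Me1, by 0.24. The citrate carrier of the mitochondrial inner membrane, Slc25a1, was at 10.7 and 9.10 CPM and did not pass (adjusted p 0.0562 in edgeR).

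Of 17 genes of fatty acid elongation and desaturation 13 had enough counts to be tested. Among these, 4 were higher, 3 lower and 6 did not pass, with a median of 0.02. The share called, 53.8%, was near the 51.1% of all rows. The rises were those of Hsd17b12 (0.60) and Hacd1 (0.51), which act within the elongation cycle, and of the elongases Elovl5 (0.35) and Elovl1 (0.28). Tecr, the reductase that ends the cycle, had the largest fall among the genes of this list that passed, 0.39 on the log2 scale, followed by Hacd3 and the desaturase Fads1. A further stearoyl-CoA desaturase of the mouse, Scd4, was at 41.1 CPM in WT and 30.9 CPM in KO and did not pass (log2 fold change -0.41 ± 0.39, SE, n = 6 per group; adjusted p 0.409 in edgeR).

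Of 15 genes of glycerolipid assembly upstream of Dgat1 and Dgat2 12 were tested, and 3 were higher, 5 lower and 4 did not pass, with a median of -0.11. Of those tested 66.7% were called, against 51.1% of all rows. Gpam, the mitochondrial acyltransferase that starts the pathway, fell from a mean of 485 to 213 CPM (log2 fold change -1.19 ± 0.096, SE, n = 6 per group; adjusted p 6.22e-08 in edgeR), close in size to Dgat2 at its end. Gpat3, another acyltransferase of the first step, changed by -0.76. Lpin3, one of the lipin phosphatases, rose from 7.98 to 17.8 CPM, by 1.16 on the log2 scale, and Lpin2 by 0.55. Gpd1, which makes the glycerol backbone, rose from 78.8 to 140 CPM, by 0.83, although in KO replicate 3 it was at 70.6 CPM.

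**Figure D4:**
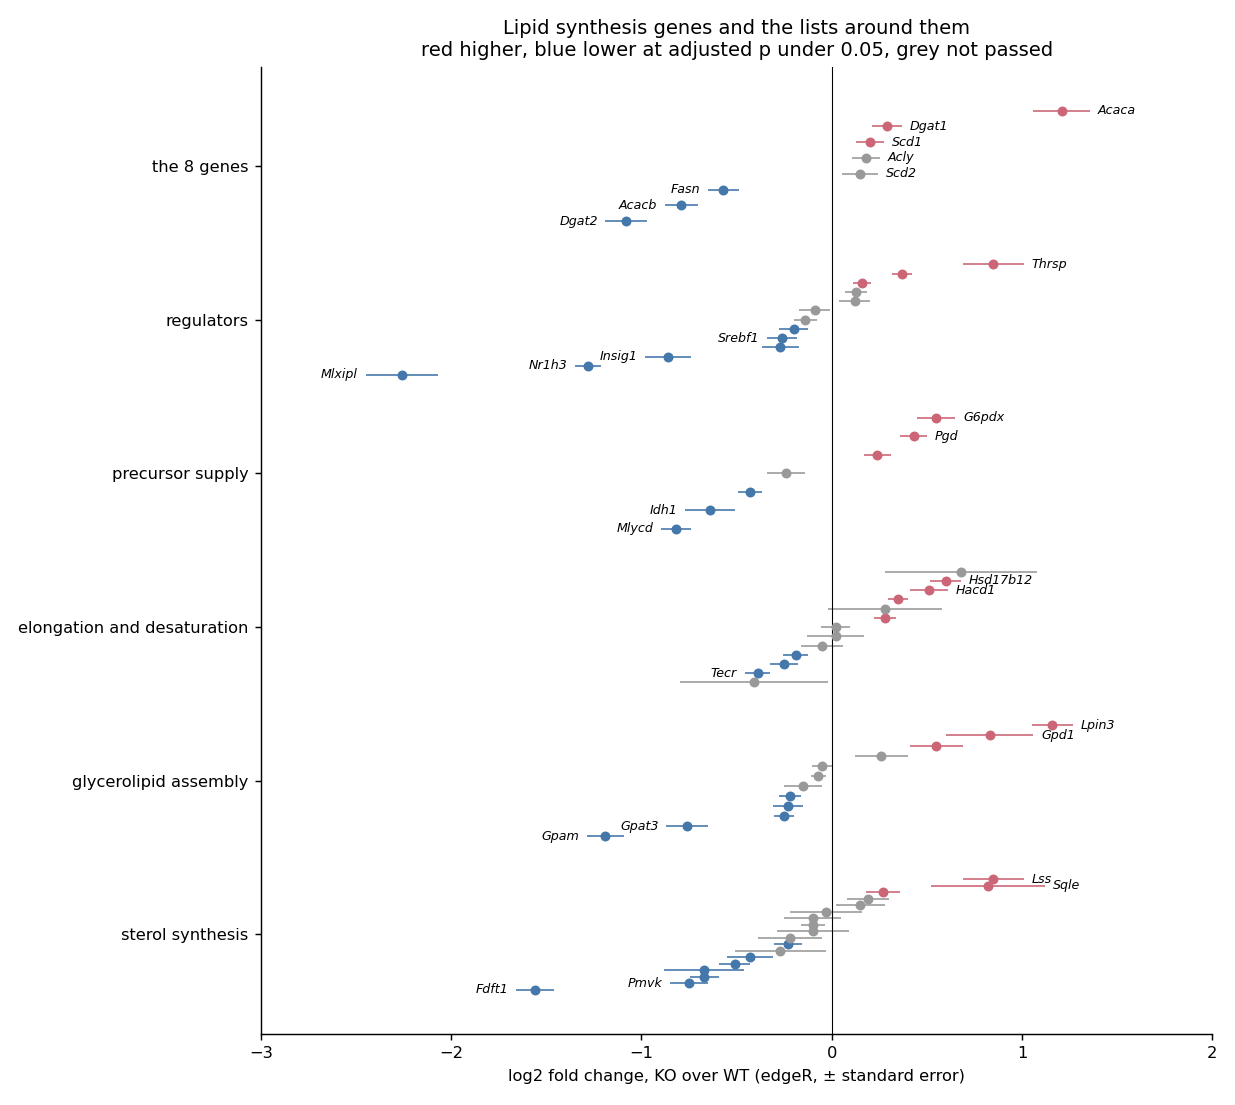
log2 fold changes of KO over WT with their standard errors for the 8 genes and the 5 lists around them, 1 point per gene tested; red is higher and blue lower at an adjusted p of 0.05 in edgeR, and grey did not pass. Each list holds genes on both sides of 0, with Mlxipl at -2.26, Fdft1 at -1.56 and Gpam at -1.19 on the left and Acaca at 1.21 and Lpin3 at 1.16 on the right.

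The sterol list had 20 genes, of which 19 were matched and 18 tested. In KO 3 were higher, 7 lower and 8 did not pass, with a median of -0.16. The called share of 55.6% was near the 51.1% of all rows. Fdft1, squalene synthase, fell from a mean of 53.4 to 18.1 CPM (log2 fold change -1.56 ± 0.10, SE, n = 6 per group; adjusted p 6.36e-09 in edgeR), and its row overlaps that of the neighbouring gene Ctsb. Rows of other list genes named here overlap another row too, among them Mlxipl, Nr1h3, G6pdx, Acss2, Gpat3, Lpin3, Gpd1, Lss and Cyp51. Their values carry the same uncertainty over strand. Pmvk, of the mevalonate segment, changed by -0.75 and the lanosterol demethylase Cyp51 by -0.67. The steps between Fdft1 and Cyp51 went the other way, as Lss rose by 0.85 and Sqle by 0.82, but both were low, at means of 2.97 and 5.36 CPM for Lss and of 0.769 and 1.36 CPM for Sqle. Sqle (adjusted p 0.0291) did not pass in 6 of the 12 fits with 1 library omitted, without WT replicate 3, 4 or 5 or KO replicate 2, 4 or 6, where adjusted p ranged up to 0.073 in edgeR. Hmgcs1, an early enzyme of the mevalonate segment, was at 45.5 and 42.4 CPM and did not pass (adjusted p 0.195 in edgeR).

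In bulk tissue fewer cells of a type and less RNA per cell cannot be told apart, so marker genes were read beside these results. Of 9 adipocyte markers 8 were not above 0.825 CPM in any library, Adipoq, Plin1 and Cidec among them, and summed to 0.217 to 1.41 CPM in WT and 0 to 1.1 CPM in KO. Adipocyte-defining markers were thus at or near 0 in both groups. Cidea, the remaining marker, rose from 40.5 to 58.6 CPM (log2 fold change 0.53, adjusted p 5.68e-05 in edgeR). All 6 fibroblast markers rose, with sums of 1152 to 1311 CPM in WT and 1892 to 3049 CPM in KO. Of 10 cardiomyocyte markers 5 were lower and 1 higher, with sums of 53940 to 59090 CPM in WT and 44650 to 60440 CPM in KO. Of 4 endothelial markers 2 were higher and 1 lower, and of 4 macrophage markers 2 were lower. Over all rows 51.1% were called in either direction. The part of these shifts in the changes of the 8 genes was not tested.

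The 8 genes also varied from heart to heart within a genotype. After the genotype mean was taken off, the correlation over 12 libraries of log2 CPM was -0.77 between Acaca and Dgat2 and 0.70 between Acly and Scd2, the extremes among the 8. Without KO replicate 3 the value of Acaca and Dgat2 was -0.41, while that of Acly and Scd2 stayed between 0.66 and 0.80 with any 1 library left out. Each library contributes to every gene, and these correlations are descriptions only. Among 9946 named rows of at least 5 CPM, the pattern of Acaca was most like that of Arfgap3 (0.95), Stat6 (0.94) and Phlda3 (0.94), and that of Acacb most like Tmem11 (0.95), Aox1 (0.93) and the insulin receptor gene Insr (0.92). Dgat2 was nearest to Asb14 (0.94), Tcp11l2 (0.93) and Rhbdd3 (0.92), and Fasn to Numa1 (0.89), Purg (0.89) and Ttpal (0.87). For Acly the nearest were Smtnl2 (0.92), Cic (0.87) and Nr1d1 (0.87), and for Scd2 Afap1l1 (0.95), Cic (0.93) and Med27 (0.91). Scd1 was nearest to Scap (0.87), which encodes the escort protein of the SREBP factors, and to Donson (0.87) and Ap2a1 (0.86), and Dgat1 to Hmgxb4 (0.84), Atg12 (0.84) and Rpl7l1 (0.80). With 1 library left out the lowest of these values were 0.66 for Dgat1 and Rpl7l1, without KO replicate 5, and 0.68 for Acaca and Arfgap3, without KO replicate 3.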

How the data were processed

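Poly-A RNA of 12 ventricular samples was sequenced. The authors mapped the reads (HISAT2 2.0.5 and mm10 are named in the submitters' processing notes, whereas the identifiers are those of C57BL/6NJ) and counted them with HTSeq. The deposited table holds raw counts per row and library, and the authors' FPKM, whose implied length differs from the listed length for 5 of the 8 genes. The authors' pooled means (a signal), log2 fold changes and p-values were not used.

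Groups and replicate numbers came from the sample labels. The analysis used edgeR 4.0.16 (R 4.3.3). Rows passing filterByExpr, 17155 in all, were scaled by TMM and tested with the robust quasi-likelihood method, and p-values were adjusted over these rows by the Benjamini-Hochberg procedure. On simulated counts for 17155 genes with 200 changed, 193 were recovered with 6 false calls. The 200 had a mean of at least 5 CPM and log2 changes of at least 1 in size. The recovery of smaller changes, or of changes in rows with fewer counts, was therefore not examined. Far fewer genes were changed than were called in the data, so these numbers hold for the simulated setting only. The chi-square per degree of freedom between libraries of a group was 7.32 to 22.6 in WT and 11.8 to 53.7 in KO, and none was merged. Pairs with KO replicate 3 were at 29.7 to 53.7, and pairs of KO replicate 6 with the remaining KO libraries at 24.1 to 48.6. Other KO pairs did not exceed 17.1, so KO replicates 3 and 6 differed from the others over all rows. The labels do not say that replicates are separate animals beyond their numbers, so p-values set the group difference against the spread between these samples. Ratios were tested by exact permutation. The 8 genes and all lists were chosen with earlier results of these data known. Named genes are the 8, up to 4 called genes of each list with the largest absolute log2 fold change and a mean of at least 1 CPM, Srebf1, Srebf2, Mlxipl, Thrsp and Mlycd, and the 3 rows nearest in pattern to each of the 8; Insig2, Acss2, Me1, Slc25a1, Elovl1, Hacd3, Fads1, Scd4, Lpin2, Cyp51 and Hmgcs1 were named after their values were seen. Promoters came from RefSeq (GRCm38.p6) and transcripts from GENCODE. Alternatives were other scalings, tests (DESeq2 1.42.0, voom in limma 3.58.1), filters, a replicate block and each library left out.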

Additional observations from a re-analysis of the deposited data

Results flagged for a closer look

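Of 68 groups of 6 libraries examined, 7 held a library whose gap to its neighbour exceeded Dixon's 95% critical value as a share of the range, where chance gives about 1 in 20, or 3.4. The ratio of Acacb to Acaca in KO replicate 3 was 11.2, against 3.57 to 5.75 in the other KO libraries. In the same library Gpd1 was at 70.6 CPM, against 140 to 170 CPM. Dgat1 in KO replicate 5 was at 31.1 CPM, with the other KO libraries at 23.3 to 25.5 CPM. The ratio of Scd1 to Scd2 in WT replicate 4 was 1.07, with the others at 0.772 to 0.825. Mlycd in WT replicate 6 was at 223 CPM (others 258 to 266 CPM), Lss in KO replicate 6 at 7.64 CPM (others 4.37 to 5.51 CPM), and Sdhaf4 in KO replicate 1 at 2.73 CPM (others 2.25 to 2.41 CPM). KO replicate 3 was the KO library nearest to the WT mean for 3 of the 8 genes, Acaca, Acacb and Dgat2, and not for the other 5.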

How the results depend on the processing

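No log2 fold change of the 8 genes or of the list genes named by rule, and no log2 difference of the 3 ratios, changed sign under any alternative run. Some weaker correlations between the 8 genes did, such as that of Acaca and Scd2, 0.44 with all libraries and -0.63 without KO replicate 3. Over the 8 settings of scaling, test, filter and block, rows called higher numbered 3918 to 4626 and lower 4029 to 4518, and another scaling moved the median of all rows by less than 0.1 on the log2 scale. Without a filter on low counts Scd1 (0.20) had an adjusted p of 0.0577. Leaving out 1 library at a time gave log2 fold changes of 0.12 to 0.23 for Acly, 0.16 to 0.23 for Scd1 and 0.10 to 0.20 for Scd2, and 1 to 3 sterol genes called higher (1 without WT replicate 4 or KO replicate 2). Regulators called lower numbered 4 to 6 with 1 library left out and 4 to 7 over the 8 settings. The fall of Dgat2 lay between -1.19 and -1.01, that of Acacb between -0.84 and -0.72, that of Fasn between -0.63 and -0.53 and the rise of Acaca between 1.13 and 1.32. Sqle was also not called with limma-voom (adjusted p 0.0809) or with the replicate block (0.0872). Same-numbered WT and KO libraries did not deviate together (correlations -0.162 to 0.0243), so the numbers were not taken as pairs. With the replicate block 4123 rows were higher and 4110 lower, the 8 genes kept their calls, Scd1 at an adjusted p of 0.0489, and of the list genes named by rule, Sqle lost its call (the block was not compared for the other genes named). Correlations and coefficients of variation without 1 library were chosen for recomputation after seeing the data. Depth limits the sterol genes near 1 CPM more than the 8 genes, and no count in any of the 8 was below 341.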
